A study of Homo sapiens with 8 samples.

Results

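Metallothioneins, the cell's zinc transporters and the zinc-sensing factor MTF1 were followed through the early neural differentiation of human stem cells. Members were taken by gene name: the MT1 genes with a single-letter suffix, MT2A, MT3, MTF1, and all numbered genes of the SLC30A and SLC39A families. That gave 36 of the 35940 gene symbols in the deposited table: 11 metallothioneins, 10 SLC30A genes, 14 SLC39A genes and MTF1. The set was chosen by measured values: it was picked because metallothionein TPM were lower at 42 h than at 34 h, so that interval is described with no test.

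The cells were ESI017, a wild-type human embryonic stem cell line. Differentiation began with a change from mTeSR1, a stem cell medium, to the neural medium N2B27 with 2 inhibitors, SB at 10 μM and LDN at 100 nM. Recombinant human WNT3A (300 ng/mL in the protocol), a secreted signalling protein, was added at 34 h. Poly(A) RNA was sequenced at 34, 42, 50 and 72 h, which is just at the addition of WNT3A and 8, 16 and 38 h after it, with 2 libraries at each time point. All 8 libraries shared the line, the medium and both inhibitors. Cells kept without WNT3A were not analysed here, so elapsed time and WNT3A cannot be told apart. Replicates 1 and 2 carry batch numbers 1 and 2 in the labels, and p-values measure only the spread between these libraries.

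Zinc is held inside cells by several layers of protein. Metallothioneins are small cysteine-rich proteins that bind zinc and copper. SLC30A transporters (also called ZnT) move zinc out of the cytosol, across the plasma membrane or into organelles and vesicles, and SLC39A transporters (ZIP) move it into the cytosol. MTF1 is a zinc finger factor that binds metal response elements when zinc rises, and metallothionein genes and SLC30A1 are its best-known targets.

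Of the metallothioneins that reached at least 1 TPM in at least 2 libraries, only MT2A, MT1H and MT1X had a RefSeq promoter available here. Their promoters and that of SLC30A1 are printed because they hold the short sequence to which MTF1 binds. Each runs 5′ to 3′ from 250 bases before to 50 bases after the RefSeq transcription start (GRCh38.p14), and capitals mark every match to the 7-base core of the metal response element, TGCACNC or TGCGCNC, on either strand.
MT2A, chr16:56608334-56608633, plus strand: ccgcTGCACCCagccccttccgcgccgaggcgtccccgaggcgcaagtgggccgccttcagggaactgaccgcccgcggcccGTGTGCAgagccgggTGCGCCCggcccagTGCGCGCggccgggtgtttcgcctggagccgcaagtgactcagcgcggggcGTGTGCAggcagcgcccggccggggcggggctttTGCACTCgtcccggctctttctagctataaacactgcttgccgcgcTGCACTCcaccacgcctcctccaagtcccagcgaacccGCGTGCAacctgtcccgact
MT1H, chr16:56669564-56669863, plus strand: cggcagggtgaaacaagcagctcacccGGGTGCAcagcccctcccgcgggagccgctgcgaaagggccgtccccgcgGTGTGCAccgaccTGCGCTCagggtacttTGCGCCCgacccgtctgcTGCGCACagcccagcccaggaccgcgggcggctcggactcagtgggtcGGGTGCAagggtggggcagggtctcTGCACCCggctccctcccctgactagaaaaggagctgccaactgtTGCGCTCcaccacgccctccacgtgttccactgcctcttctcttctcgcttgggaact
MT1X, chr16:56682220-56682519, plus strand: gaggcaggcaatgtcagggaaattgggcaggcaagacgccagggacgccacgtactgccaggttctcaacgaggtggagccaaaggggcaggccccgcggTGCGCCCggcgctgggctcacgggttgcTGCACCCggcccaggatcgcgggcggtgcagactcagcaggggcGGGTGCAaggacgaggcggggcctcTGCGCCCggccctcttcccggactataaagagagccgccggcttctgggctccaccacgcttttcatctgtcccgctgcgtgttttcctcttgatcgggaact
SLC30A1, chr1:211579112-211579411, minus strand: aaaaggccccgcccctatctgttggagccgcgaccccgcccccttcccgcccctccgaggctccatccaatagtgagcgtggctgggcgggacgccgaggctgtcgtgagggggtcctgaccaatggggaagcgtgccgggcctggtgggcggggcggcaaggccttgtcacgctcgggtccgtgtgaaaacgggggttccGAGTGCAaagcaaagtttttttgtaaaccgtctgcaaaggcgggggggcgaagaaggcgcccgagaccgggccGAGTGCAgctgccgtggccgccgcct

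MT2A and MT1H each held 8 cores, MT1X held 4, and MT1B, whose promoter was also in the RefSeq table, held 3. Of the 11 metallothioneins 4 had a promoter there, and all 4 of those promoters had at least 3 cores. Among 35116 promoters of the same length in that table, 29.6% had at least 1 core and 2.3% had at least 3. SLC30A1 held 2, one 49 bases before the start and one 24 bases after it. Among the transporters, 6 of 11 SLC30A promoters (9 genes) and 7 of 19 SLC39A promoters (12 genes) had a core, and only SLC30A2, a transporter of secretory vesicles, reached 3. The promoter of MTF1 itself had 0. In MT1B, MT1H, MT1X and MT2A a core began 53 or 54 bases before the start, as the map of core positions shows. These matches describe letters in a window and are not evidence of binding in these cells.

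**Figure D1:**
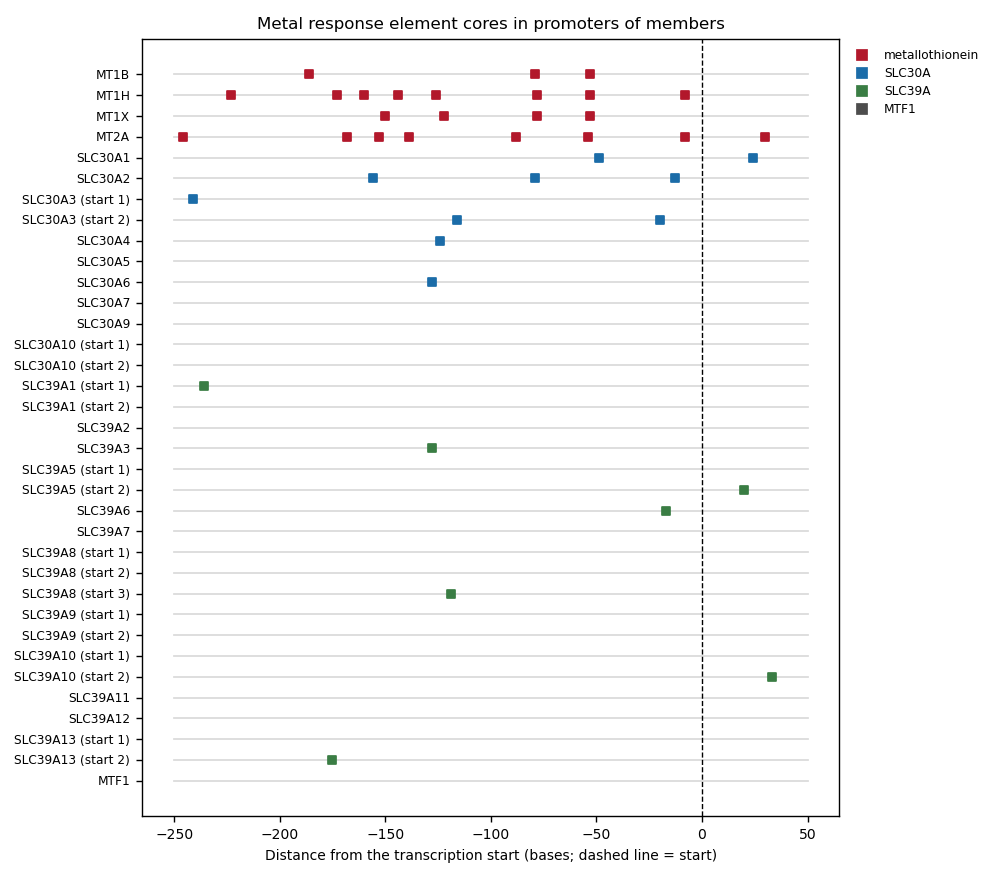
Positions of metal response element cores (squares) along the promoters of members, in bases from the transcription start (dashed line), with one grey line per RefSeq start and colours for the families. Metallothionein promoters hold 3 to 8 cores each, and all but one of the transporter promoters hold 0 to 2; the exception is SLC30A2 with 3.

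All 11 metallothionein genes lie in one cluster on chromosome 16 (GRCh38, GENCODE release 29), from MT3, which starts at 56589074, to MT1X, which ends at 56684196. MT1L is annotated there as a transcribed pseudogene and the other 10 as protein coding. Levels are in TPM, a share of a library's transcripts scaled for length, as deposited by the authors, and TPM keeps no record of read number, so the depth behind each value is unknown. These genes are similar in sequence, which leaves some uncertainty in how reads were shared out among them. In GENCODE transcripts between 1.20% (MT3) and 23.3% (MT1G) of the 31-base words of a metallothionein also occurred in another metallothionein, but 0% of their 150-base words, the length of 1 read, did. For MT1X, 8.58% of the 150-base words occurred in a gene outside the family. Counted against any other gene, the share of 31-base words ran from 1.20% (MT3) to 28.8% (MT1B), with 19.8% for MT1X.

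Of the 11 metallothioneins, 8 passed the filter of at least 1 TPM in at least 2 libraries. The other 3 were near 0: MT1A and MT1B never exceeded 1.16 and 1.18 TPM and were listed at 0 in the 34 h and 72 h libraries, and MT1L stayed at or below 0.614 TPM. MT3, the growth inhibitory factor of brain, passed narrowly and ranged from a listed 0 to 1.29 TPM. MT4, the squamous epithelial form, which is outside the naming rule, was listed at 0 in all 8 libraries.

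MT2A, the most widely expressed human metallothionein, was the most abundant at 34 h, with 219.8 and 201 TPM in replicates 1 and 2. It had 98.8 and 92.6 TPM (42 h), 52.9 and 54.8 TPM (50 h), and 51.9 and 61.7 TPM (72 h). The 2 libraries at 34 h were above all others, both libraries at 42 h were above those at 50 h and 72 h, and the 50 h and 72 h values overlapped. Mean levels at 42 h and 50 h were 2.20-fold and 3.91-fold below that at 34 h.

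MT1G had 70.4 and 58.8 TPM (34 h), 18.1 and 17.9 TPM (42 h), 4.43 and 4.36 TPM (50 h), and 16.6 and 14.1 TPM (72 h). Its mean at 50 h was 14.7-fold below that at 34 h, the lowest ratio among the 8 metallothioneins that passed the filter. The libraries of 34, 42 and 50 h formed 3 separate steps downward, and those of 72 h lay just below the 42 h pair.

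MT1H, like the scarcer MT1M, was lowest at 72 h. Its libraries read 37.8 and 51.1 TPM (34 h), 6.0 and 8.09 TPM (42 h), 4.14 and 4.01 TPM (50 h), and 2.71 and 2.72 TPM (72 h). It was 6.31-fold lower at 42 h than at 34 h and 16.4-fold lower at 72 h, and no time points overlapped.

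MT1F had 51.3 and 42.5 TPM (34 h), 25.8 and 22.0 TPM (42 h), 12.8 and 9.32 TPM (50 h), and 23.5 and 24.9 TPM (72 h), close to its 42 h level. MT1X had 77.9 and 71.2 TPM (34 h), 48.1 and 38.3 TPM (42 h), 44.3 and 28.3 TPM (50 h), and 75.1 and 99.4 TPM (72 h). The 34 h and 72 h libraries of MT1X overlapped, which was the case for none of MT1E, MT1F, MT1G, MT1H, MT1M and MT2A. The low-abundance MT1E had 10.8 and 14.0 TPM (34 h), 2.92 and 5.23 TPM (42 h), 1.79 and 3.59 TPM (50 h), and 3.88 and 3.93 TPM (72 h). MT1M had 4.68 and 4.51 TPM (34 h) and 0.673 and 0 TPM (72 h).

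**Figure D2:**
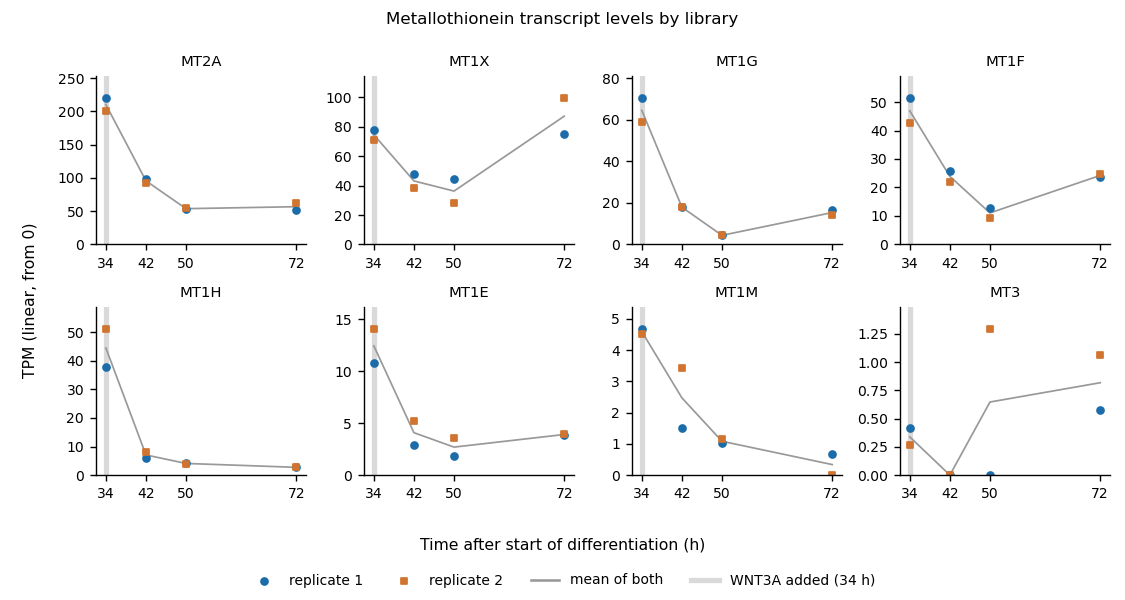
TPM (linear axis from 0, separate scale per panel) of the 8 metallothioneins that passed the filter against time in hours, with circles for replicate 1, squares for replicate 2 and a line through the means. MT2A steps down and stays at about 50 to 60 TPM, MT1G, MT1F and MT1X are higher again at 72 h, and MT1H and MT1M are lowest at 72 h.

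All 8 metallothioneins that passed the filter were lower in both 42 h libraries than in both 34 h libraries. In this interval 20.2% of the 14908 tested genes were lower and 22.2% higher with no overlap, and limma, a linear model over all genes, called 0.792% lowered, 1.78% raised and 2.58% in all (adjusted p under 0.05). Of the 17 other members that passed (transporters and MTF1, without SLC30A1), 5 were lower and 4 higher with no overlap. Since the rule used this interval, nothing is read from the count of members. The median log2 change of the 8 was -1.04 on the log2(TPM + 1) scale, beside 0.01 over all tested genes. Between 42 h and 50 h, 5 of the 8 were lower again with no overlap (MT1F, MT1G, MT1H, MT1M and MT2A), beside 15.8% of tested genes, and no test is given because the 42 h libraries had entered the choice. Among the same 17 genes, 2 were lower and 5 higher with no overlap, beside 21.5% of tested genes that were higher.

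Summed over the 11 genes, metallothioneins held 458 ± 20.9 TPM at 34 h (SD, n = 2), 195 ± 9.57 at 42 h, 115 ± 9.46 at 50 h and 192 ± 22.8 at 72 h. The sum at 42 h was 0.426 of that at 34 h, with 0.427 within replicate 1 and 0.425 within replicate 2. TPM is scaled by transcript length and these transcripts differ in length, so the sum also depends on how reads were shared out. In bulk RNA, fewer cells with a transcript and less of it in each cell cannot be told apart.

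The make-up of the sum changed with time. MT2A held 46.5% and 45.3% of it at 34 h, and 29.6% and 29.7% at 72 h. MT1X went from 16.5% and 16.1% to 42.8% and 47.8%, so that at 72 h it was the most abundant metallothionein in both libraries. The ratio of MT1X to MT2A within a library was 0.354 or 0.355 in the 34 h pair, 0.413 or 0.487 in the 42 h pair, 0.517 or 0.837 in the 50 h pair and 1.45 or 1.61 in the 72 h pair. Relative to MT1G, MT1H stood at 0.537 and 0.870 in the 34 h libraries, at 0.332 and 0.453 in those of 42 h, at 0.933 and 0.920 in those of 50 h, and at 0.163 and 0.193 in those of 72 h. These ratios use values at 34 h and 42 h and are given without a test.

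**Figure D3:**
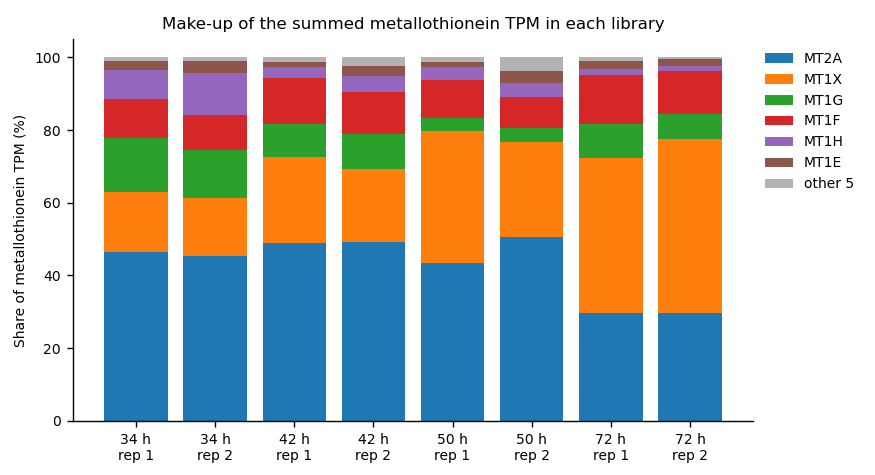
Share of each metallothionein in the summed metallothionein TPM (percent, stacked to 100) for the 8 libraries in order of time. MT2A holds the largest part up to 50 h and MT1X holds it in both 72 h libraries, at 42.8% and 47.8%.

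The rule that chose the members used neither the 50 h nor the 72 h values, although earlier results on these data were known. All 26 members that passed the filter were tested between these 2 time points by limma over 14908 genes. The spread in that fit came from all 8 libraries (4 residual degrees of freedom), those of 34 h and 42 h included. Of the 26, 4 rose and 2 fell, which is 23.1%, beside 7.33% of all tested genes (2.92% raised and 4.41% lowered). The 4 were the metallothioneins MT1G, MT1X and MT1F and the zinc exporter SLC30A1, and the 2 were SLC30A3 and SLC39A14. All 4 that rose were among the genes singled out by earlier results at 34 h and 42 h. Of the 17 members not singled out in that way, 0 rose and 2 fell (11.8%). The 23.1% is therefore not read as an excess among the members. Without a test, 8 of the 26 were higher and 6 lower with no overlap, beside 25.8% and 25.9% of tested genes. The median log2 change of the 26 was -0.01, beside 0.01 over all tested genes. In a fit of only the 50 h and 72 h libraries (2 residual degrees of freedom) 1 member, MT1G, passed, and 367 of all tested genes did in place of 1093. The count of 6 was 3 without replicate 2 at 50 h or without replicate 1 at 72 h, and 2 without replicate 2 at 72 h. That the 50 h level of MT1G was low was already known from the earlier results on these data.

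MT1G rose from 4.40 ± 0.0510 to 15.4 ± 1.77 TPM (SD, n = 2), a log2 change of 1.60 ± 0.14 (SE; limma adjusted p 0.000655), with 1.70 and 1.50 within replicates 1 and 2. This call held in all 16 alternative settings. MT1X rose from 36.3 ± 11.3 to 87.2 ± 17.2 TPM, by 1.26 ± 0.22 (adjusted p 0.0134 by limma), with 0.75 and 1.78 in replicates 1 and 2. MT1F rose from 11.1 ± 2.47 to 24.2 ± 0.957 TPM, by 1.08 ± 0.17 (adjusted p 0.00890 by limma), with 0.83 and 1.33. The call of MT1X was lost without replicate 2 at 50 h (adjusted p 0.0577) or at 72 h (0.0953), and that of MT1F without replicate 1 or 2 at 72 h (0.0674 and 0.0677). Both were also lost when only the 50 h and 72 h libraries were fitted (limma adjusted p 0.0785 for MT1X and 0.0598 for MT1F), and across alternatives the adjusted p ran from 0.00953 to 0.0953 for MT1X and from 0.00591 to 0.0677 for MT1F.

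The other metallothioneins did not pass in this interval. In log2, MT2A differed by 0.07 ± 0.11 (adjusted p 0.758 by limma), MT1E by 0.45 ± 0.30 (0.424) and MT3 by 0.25 ± 0.41 (0.775). MT1H and MT1M had negative estimates of -0.45 ± 0.20 and -0.69 ± 0.34 (limma adjusted p 0.226 and 0.288), and both were lower within each replicate. Whether the change of MT1G, MT1X or MT1F differs from that of MT2A was not tested.

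**Figure D4:**
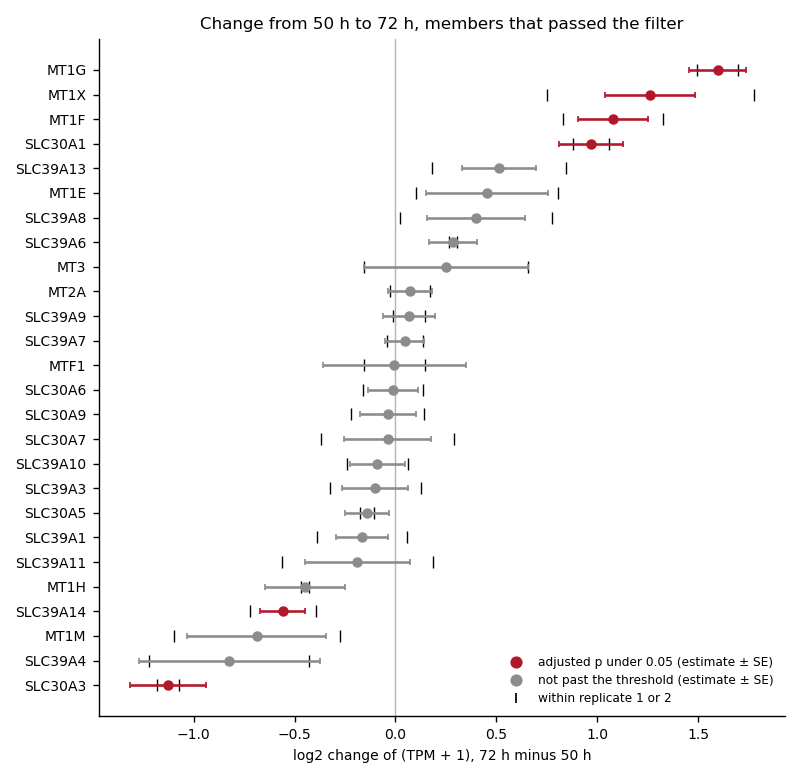
Change from 50 h to 72 h of the 26 members that passed the filter, as the log2 change of TPM + 1 (points) with its standard error (bars) and the change within each replicate number (ticks). The 6 members past the threshold (dark red) are MT1G, MT1X, MT1F and SLC30A1 above 0 and SLC39A14 and SLC30A3 below.

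SLC30A1 (ZnT1) is the main zinc exporter of the plasma membrane. Its libraries had 7.68 and 7.64 TPM (34 h), 4.87 and 4.75 TPM (42 h), 4.75 and 4.44 TPM (50 h), and 11.0 and 9.02 TPM (72 h). Both 42 h libraries and both 50 h libraries were below the 34 h pair, and the 72 h pair was above all others. Between 50 h and 72 h its rise was 0.97 ± 0.16 in log2 (adjusted p 0.00994 by limma), with 1.06 and 0.88 in replicates 1 and 2. That call was lost without replicate 2 at 50 h (0.0593), without replicate 1 at 72 h (0.0933) and in a fit of only the 50 h and 72 h libraries (0.0683), over a range of 0.00834 to 0.0933. Like the metallothioneins, SLC30A1 had been singled out by earlier results at the first time points and is untested there.

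SLC30A3 (ZnT3) loads zinc into synaptic vesicles of neurons. It had 23.6 and 23.7 TPM (34 h), 25.9 and 27.8 TPM (42 h), 20.4 and 14.4 TPM (50 h), and 8.43 and 6.33 TPM (72 h), and its 72 h libraries were the lowest. In log2, it fell by 1.13 ± 0.19 between 50 h and 72 h (adjusted p 0.0106 by limma) and by 1.57 ± 0.19 over the whole course from 34 h (adjusted p 0.000798). The first of these calls was lost without replicate 2 at 72 h (limma adjusted p 0.0744) and in a fit of only its own libraries (0.0841; range 0.00925 to 0.0841), and the second held in all 16 alternatives. The ratio of SLC30A3 to SLC30A1 within a library was 3.07 or 3.10 in the 34 h pair, 5.31 or 5.85 in the 42 h pair, 3.25 or 4.29 in the 50 h pair and 0.701 or 0.769 in the 72 h pair, and is given without a test.

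The SLC30A transporters of the secretory pathway and of mitochondria had the steadier levels. SLC30A5 and SLC30A6, which form a pair that supplies zinc to enzymes in the secretory pathway, stayed between 23.7 and 29.5 TPM and between 18.6 and 21.7 TPM in the 8 libraries. SLC30A7, their Golgi relative, ranged from 3.96 to 5.70 TPM. SLC30A9, assigned to mitochondria, ranged from 43.0 to 55.9 TPM and was the most abundant SLC30A transcript in every library. None of these 4 passed in an interval tested. SLC30A2, SLC30A4, SLC30A8 and SLC30A10, known from mammary gland, vesicles, pancreatic beta cells and manganese export, never exceeded 0.528 TPM in a library and did not pass the filter.

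Among the importers, SLC39A1, a ubiquitous plasma membrane transporter, was the most abundant, at 160.2 and 149.5 TPM (34 h) and 127 and 134 TPM (72 h). SLC39A7, which releases zinc from the endoplasmic reticulum, had 98.4 and 93.1 TPM (34 h) and 108.9 and 107.8 TPM (72 h). SLC39A7 had 2 rows in the deposited table, and the row on the primary chromosome 6 was listed at 0 in all libraries while the other, absent from the GENCODE primary assembly, held all of the TPM. SLC39A3, SLC39A6, SLC39A9, SLC39A10 and SLC39A11 were also present throughout, between 6.28 TPM (SLC39A11) and 52.7 TPM (SLC39A10) in a library. SLC39A10 had 36.7 and 35.8 TPM (34 h) and 45.1 and 52.5 TPM (42 h); its difference between 72 h and 34 h, 0.36 ± 0.14, did not pass (limma adjusted p 0.0952).

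SLC39A14 (ZIP14) takes up manganese and iron as well as zinc. It had 92.1 and 82.6 TPM (34 h), 67.4 and 65.8 TPM (42 h), 55.2 and 60.6 TPM (50 h), and 41.7 and 36.4 TPM (72 h), with no overlap between any time points. Over the whole course it fell by 1.14 ± 0.11 in log2 (adjusted p 0.000269 by limma), a call that held in all 16 alternatives. Between 50 h and 72 h it fell by 0.56 ± 0.11 (adjusted p 0.0223 by limma), a call lost in 5 of 16 alternatives: without replicate 2 at 50 h (0.109), without replicate 1 or 2 at 72 h (0.0681 and 0.137), in a fit of only those libraries (0.0965) and without the mean trend of the variance (0.0525).

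SLC39A13 (ZIP13), a transporter of Golgi and vesicles with a role in connective tissue, was the 1 of the 17 genes tested at 72 h against 34 h that rose; SLC30A1 was not among the 17. It had 19.7 and 19.2 TPM (34 h), 26.9 and 20.3 TPM (42 h), 26.9 and 21.2 TPM (50 h), and 30.6 and 39.0 TPM (72 h). The rise of 0.80 ± 0.18 in log2 (adjusted p 0.0168 by limma), with 0.61 and 0.98 in replicates 1 and 2, was lost without replicate 1 or 2 at 34 h (0.0672 and 0.0810) or replicate 2 at 72 h (0.112), over a range of 0.0163 to 0.112. SLC39A8 (ZIP8), the manganese and zinc importer most like SLC39A14, had 3.88 and 3.30 TPM (34 h) and 8.12 and 5.52 TPM (72 h), and its difference of 0.75 ± 0.24 did not pass (limma adjusted p 0.0575).

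Over the whole course, from 34 h to 72 h, 17 genes were tested: the transporters that passed the filter, without SLC30A1, and MTF1. Of these, 1 rose and 2 fell, which is 17.6%, beside 24.0% of all tested genes (12.7% raised and 11.3% lowered). The balance over all tested genes depended on scaling. It was 1900 raised and 1678 lowered in the main fit, 1588 and 1961 with TMM scaling, and 1638 and 1796 with quantile scaling. Without a test, 5 of the 17 were higher and 6 lower with no overlap, beside 36.7% and 27.9% of tested genes. Between 50 h and 42 h 0 of the 17 passed by limma, with 1 at an unadjusted p under 0.05, beside 9.35% of all tested genes at that unadjusted p and 0.0939% past the adjusted threshold (14 genes; 0.0604% raised and 0.0335% lowered), or 7 genes with the replicate block. SLC30A genes summed to 130.0 and 139.6 TPM in the 34 h libraries and 122.5 and 111.4 TPM in the 72 h libraries. SLC39A genes summed to 505 and 463 TPM at first and to 457 and 455 TPM at the end. Of the 14 SLC39A genes, SLC39A12, a brain zinc importer, was listed at 0 in all libraries, SLC39A2 and SLC39A5 stayed at or below 0.543 TPM, and SLC39A4, the intestinal zinc importer, varied between 0.765 and 3.93 TPM and did not pass in any tested interval.

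**Figure D5:**
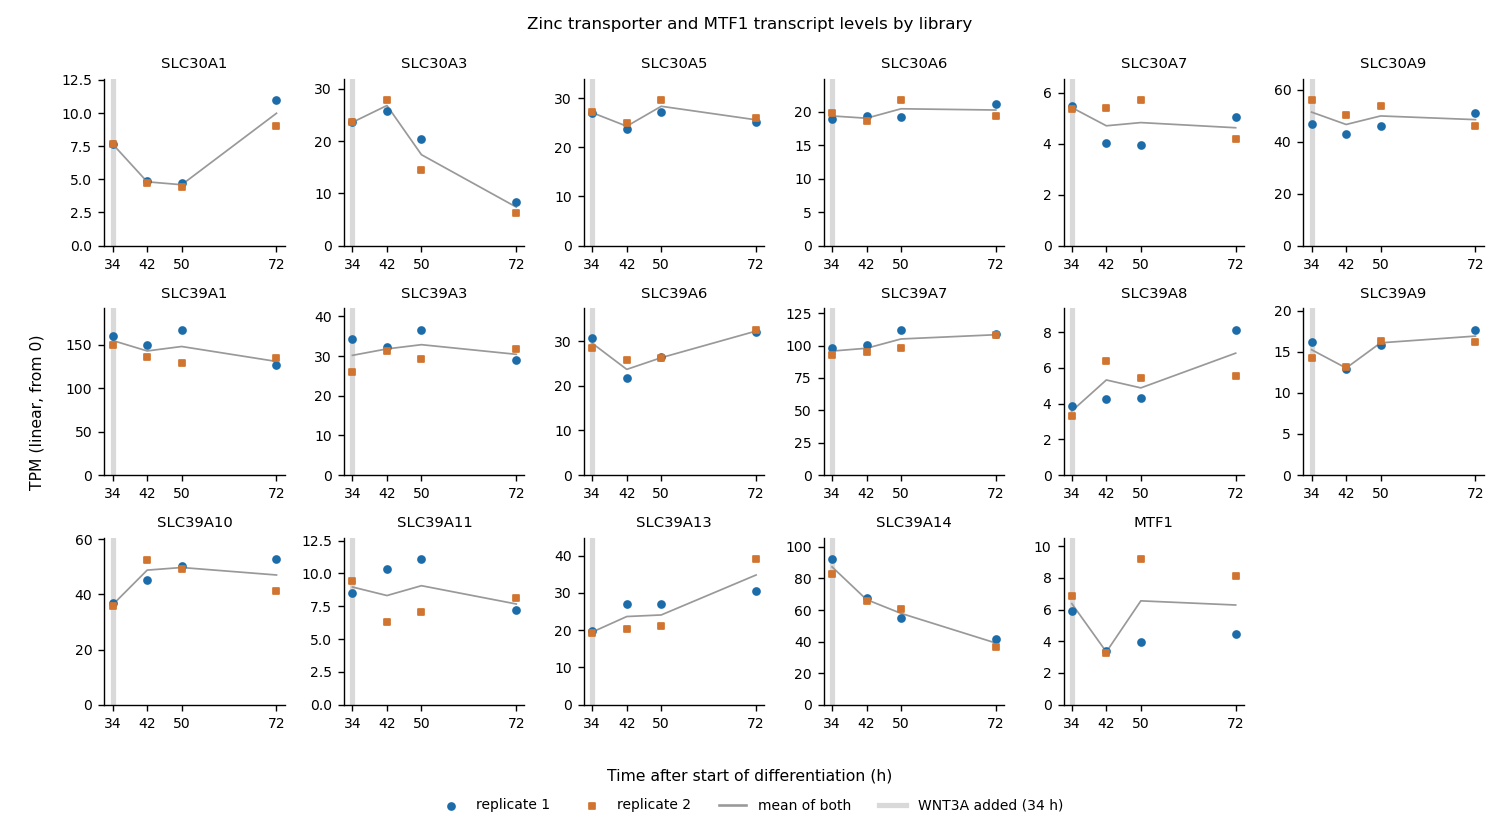
TPM (linear axis from 0, separate scale per panel) of the zinc transporters with a mean of at least 5 TPM at any time point and of MTF1, against time in hours, with circles for replicate 1, squares for replicate 2 and a line through the means. SLC30A3 and SLC39A14 are lowest and SLC30A1 and SLC39A13 highest at 72 h, and the replicates of MTF1 are apart at 50 h and 72 h.

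MTF1 transcripts did not pass in a tested interval. The libraries had 5.89 and 6.85 TPM (34 h), 3.40 and 3.25 TPM (42 h), 3.93 and 9.16 TPM (50 h), and 4.46 and 8.11 TPM (72 h). Replicate 2 was far above replicate 1 in the 50 h and 72 h pairs, which overlapped each other. The log2 estimates were 0.71 ± 0.35 for 50 h against 42 h (limma adjusted p 0.606), -0.01 ± 0.35 for 72 h against 50 h (0.996) and -0.06 ± 0.35 for 72 h against 34 h (0.923). At 42 h both libraries lay below both 34 h libraries, the interval that is described without a test.

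Other genes of metal and stress handling were read from 7 lists drawn up with earlier results of these data known. The p-values of listed genes are given with that limit. The lists held 70 genes, none of them members, of which 61 passed the filter. Between 34 h and 42 h 1 rose and 1 fell by limma (3.28%, beside 2.58% of all tested genes), and 13 of the 61 were at an unadjusted p under 0.05, beside 13.9% of all tested genes. HMOX1, heme oxygenase, a gene induced by heme, metals and oxidative stress, had 56.5 and 53.3 TPM (34 h) and 16.6 and 15.4 TPM (42 h). Its log2 change was -1.72 ± 0.15 (adjusted p 0.000802 by limma), with -1.71 and -1.73 in replicates 1 and 2. It was the 1 of 12 tested oxidative stress genes past the threshold (3 at an unadjusted p under 0.05, median log2 change of the list -0.19) and had 15.4 and 12.4 TPM (72 h). CA2, the zinc enzyme carbonic anhydrase, had 9.89 and 9.73 TPM (34 h), 24.6 and 23.0 TPM (42 h), 29.5 and 34.5 TPM (50 h) and 13.3 and 16.1 TPM (72 h). By limma it rose by 1.20 ± 0.14 in log2 up to 42 h (adjusted p 0.00358) and fell by 1.07 ± 0.14 after 50 h (adjusted p 0.00377).

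Copper handling genes, such as the importer SLC31A1 and the chaperone ATOX1, had 0 of 10 tested genes past the threshold at 42 h, with 1 at an unadjusted p under 0.05, and log2 changes between -0.195 and 0.324. The iron and manganese list had 0 of 12 (4 at an unadjusted p under 0.05) and heat shock genes 0 of 10 (1). The glucocorticoid list, which holds the receptor NR3C1 beside target genes, had 0 of 5 (1). That 1 was SGK1, a glucocorticoid-induced kinase named here after its values were seen, with 7.89 and 8.71 TPM (34 h), 5.30 and 4.60 TPM (42 h) and a log2 change of -0.65 ± 0.17 (adjusted p 0.1215 by limma). The genes on either side of the metallothionein cluster, among them BBS2, NUDT21, OGFOD1 and NUP93, had 0 of 7 tested genes past the threshold at 42 h, with 1 at an unadjusted p under 0.05 and a median log2 change of 0.01. From 50 h to 72 h 5 of the 61 fell and 0 rose (8.2%, beside 7.33% of all genes), and 11 were at an unadjusted p under 0.05, beside 22.4% of all tested genes. These were CA2, the ferritin light chain FTL (-0.44 ± 0.07), the oxidative stress genes NQO1 (-0.59 ± 0.13) and SLC7A11 (-0.63 ± 0.13), and the chaperone HSPA8 (-0.53 ± 0.11). The count of 5 was 1 without replicate 1 at 72 h and 2 without replicate 2 at 50 h or at 72 h. The oxidative stress list had 5 of 12 at an unadjusted p under 0.05 in this interval. The neighbours of the cluster had 0 of 7 past the threshold (1 at an unadjusted p under 0.05), with a median log2 change of -0.23 and all 7 estimates below 0, from -0.339 to -0.0128.

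Libraries had between 13860 and 14004 genes at 1 TPM or more. The 8 pluripotency markers all passed the filter and summed to 4513 to 4654 TPM at 34 h, 3943 to 4102 at 42 h, 3877 to 3947 at 50 h and 3279 to 3428 at 72 h, but single markers went opposite ways. TDGF1 had 743 and 785 TPM (34 h), 366 and 352 TPM (42 h), 156 and 189 TPM (50 h), and 2.94 and 6.13 TPM (72 h), and POU5F1 had 1165 and 1152 TPM (34 h) and 354 and 388 TPM (72 h). SOX2 had 224 and 211 TPM (34 h), 186 and 168 TPM (42 h), and 348 and 333 TPM (72 h). The 5 neural progenitor markers (4 passed) summed to 38.5 to 39.3 TPM, 28.9 to 33.0, 36.8 to 40.4 and 99.4 to 115 in order of time. They did not all rise. SOX1 had 1.63 and 2.14 TPM (34 h) and 56.5 and 45.2 TPM (72 h), and the mean of FABP7 went from 15.5 to 32.6 TPM. PAX6 was also higher at 72 h but never exceeded 4.01 TPM. SOX3 overlapped, with 21.7 and 20.7 TPM (34 h) and 23.4 and 16.4 TPM (72 h). HES5 was listed at 0 in both 72 h libraries.

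No marker list was tested. Markers of mesoderm and endoderm (1 of 6 passed, MIXL1, with SOX17 listed at 0 throughout) summed to 0.689 to 1.14 TPM at 34 h, 2.60 to 3.01 at 42 h, 2.61 to 2.78 at 50 h and 1.47 to 1.52 at 72 h. For fibroblasts 1 of 4 passed (COL1A1), DCN and LUM were listed at 0 in all libraries, and the sums in the same order were 79.4 to 113, 59.6 to 67.3, 37.1 to 53.0 and 32.2 to 33.0 TPM. For extraembryonic cells 1 of 4 passed (KRT7), with 35.1 to 40.6, 22.0 to 28.4, 19.9 to 21.7 and 5.31 to 7.57 TPM. Astrocyte markers (4 of 4, chiefly SLC1A3) summed to 6.72 to 7.68, 10.3 to 16.3, 15.6 to 18.5 and 14.6 to 15.9 TPM. GFAP, AQP4 and S100B of that list never exceeded 2.52 TPM in a library. Neuron markers (3 of 4, chiefly TUBB3) summed to 212 to 265, 242 to 317, 246 to 311 and 182 to 214 TPM. Against that sum, the neuronal STMN2 had 0.320 and 0.256 TPM (34 h), 1.47 and 1.56 TPM (42 h), 5.67 and 4.81 TPM (50 h), and 8.01 and 7.10 TPM (72 h), and DCX had 3.15 and 2.33 TPM (34 h) and 5.92 and 5.02 TPM (72 h). The part of these shifts in the metallothionein and transporter values was not tested.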

How the data were processed

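The authors deposited TPM per gene, and each of the 8 library columns sums to 1000000. Salmon 1.9.0 and GRCh38 are named in the submitters' processing notes, with no role or order; the annotation, filters and the step to gene level are not given in the sources used here. The 37951 rows were summed by symbol; 3 members had a pair of rows. The 14908 genes that reached 1 TPM in 2 or more libraries were fitted on log2(TPM + 1), which understates changes of low genes, with limma 3.58.1 in R 4.3.3: 1 mean per time point, all libraries, a variance following the mean level, two-sided tests, Benjamini-Hochberg adjustment over all tested genes and a threshold of 0.05. The fit was tested on simulated data. An exact permutation test of 2 against 2 libraries cannot go below a p of 0.333, so none was used. The series calls the second set of libraries an independent biological replicate.

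Members and lists were chosen with earlier results of these data known. Every metallothionein, every member reaching a mean of 5 TPM and every member past a test was to be named, and of the other lists up to 4 genes each past the threshold with an absolute log2 change of at least 0.5; FTL, SGK1, MT4, marker genes and genes given only as examples of a list were named outside this rule. Alternatives were another pseudocount (0.1), no filter, TMM and quantile scaling, the replicate block, other fits and leaving out each library. The replicate numbers pair libraries through the batch label. Differences between replicates correlated across genes at 0.0949 to 0.195 among 34, 42 and 50 h and at -0.104 to -0.0445 with 72 h.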

Additional observations from a re-analysis of the deposited data

How the results depend on the processing

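Of the 6 members changed from 50 h to 72 h, 1 (MT1G) passed in a fit of only those 2 time points, and 2 to 6 passed when a single library was left out. Under the other 7 settings 5 or 6 passed. The count of all genes changed in that interval, 1093, became 367 in the fit of 2 time points and 316 to 911 with a library left out. The 3578 genes changed from 34 h to 72 h became 1867 to 3629 with a library left out. The 384 genes changed from 34 h to 42 h became 171 in the fit of 2 time points and 161 to 372 with a library left out. The 14 genes changed from 42 h to 50 h (9 raised and 5 lowered) became 0 in the fit of 2 time points, 4 with Ensembl rows kept apart, 8 without the filter, 27 without the variance trend and 1 to 8 with a library left out; TMM scaling gave 9 raised and 10 lowered. The replicate block gave 7 there and changed no call of a member. The 5 genes of the other lists that fell from 50 h to 72 h became 1 in the fit of 2 time points, 3 without the filter, 2 without the variance trend and 1 to 5 with a library left out. The metallothionein sum ratio of 0.426 ranged from 0.412 to 0.441 with a library left out.

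Some members that did not pass from 50 h to 72 h changed sign. MTF1 was at 0.0016 with a pseudocount of 0.1. With a library left out, log2 changes ranged from -0.0519 to 0.19 for MT2A, -0.35 to 0.85 for MT3, -0.53 to 0.52 for MTF1, -0.10 to 0.0725 for SLC30A6, -0.26 to 0.18 for SLC30A7, -0.15 to 0.0671 for SLC30A9, -0.35 to 0.0198 for SLC39A1, -0.26 to 0.0588 for SLC39A3, -0.0480 to 0.14 for SLC39A7, -0.26 to 0.0811 for SLC39A10 and -0.48 to 0.10 for SLC39A11. Of 448 alternative values over 28 results for named members, 413 kept direction and side of the threshold, 19 lost the call and 16 changed sign. Leaving out 1 library leaves 1 at that time point, which is then assumed to vary like the others. Depth is unknown, so the limit it sets cannot be given.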
